A study of Homo sapiens with 8 samples.

Results

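The comparison of the lowest dose of EEDS, 1.25 μg/mL, with its vehicle control rests on 1 array a side and covers 13306 of the 19056 genes that could be named on the array. A gene was included when the scanner software called its probe well above background on both arrays, so that neither side of the ratio was a background value. Another 401 genes passed this call on the vehicle array only, 321 at 1.25 μg/mL only, and 5028 on neither. A level is the log2 of the quantile-normalized signal of a probe, and a log2 ratio is the level at 1.25 μg/mL minus that of the vehicle.

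The cells were A549, a long-established human line grown from a carcinoma of the lung, and EEDS stands for the ethanol extract made from seeds of Descurainia sophia. They received the vehicle alone or EEDS at 1.25, 5 or 20 μg/mL, and a separate set of arrays held helveticoside, a cardiac glycoside found in the extract, at 3.75, 15 and 60 nM with a vehicle of its own. RNA from 3 cultures was pooled on each array, and the sources differ on the exposure, which is 24 h in the methods and 48 h in the sample labels. With 1 array a dose, no p-value and no SD between cultures can be had, and this limits how firmly any ratio can be read.

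Cardiac glycosides block the sodium pump, the membrane enzyme that exports sodium and imports potassium. A changed balance of these ions is felt in many parts of a cell, among them protein synthesis, calcium signalling and the kinases that switch on early response genes. Cells under such stress often call on the ATF4 program, in which a translation block favours the factor ATF4 and its target genes for amino acid supply, and on NF-kappa B, which drives chemokine genes.

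Of the 13306 genes, 499 (3.75%) stood more than 2-fold above the vehicle array at 1.25 μg/mL, and 402 (3.02%) more than 2-fold below it. Genes that rose more than 4-fold numbered 26 and genes that fell more than 4-fold 17, while 75.6% of the genes stayed within 1.5-fold. The log2 ratios had a SD of 0.55 and a median of -0.01 over genes, with 1% of the genes under -1.35 and 1% over 1.48. When the 75th percentile of each array was used for scaling, 428 genes were higher and 516 lower, so the side with more genes depended on the scaling. With no background subtracted, the numbers fell to 274 and 186.

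**Figure D1:**
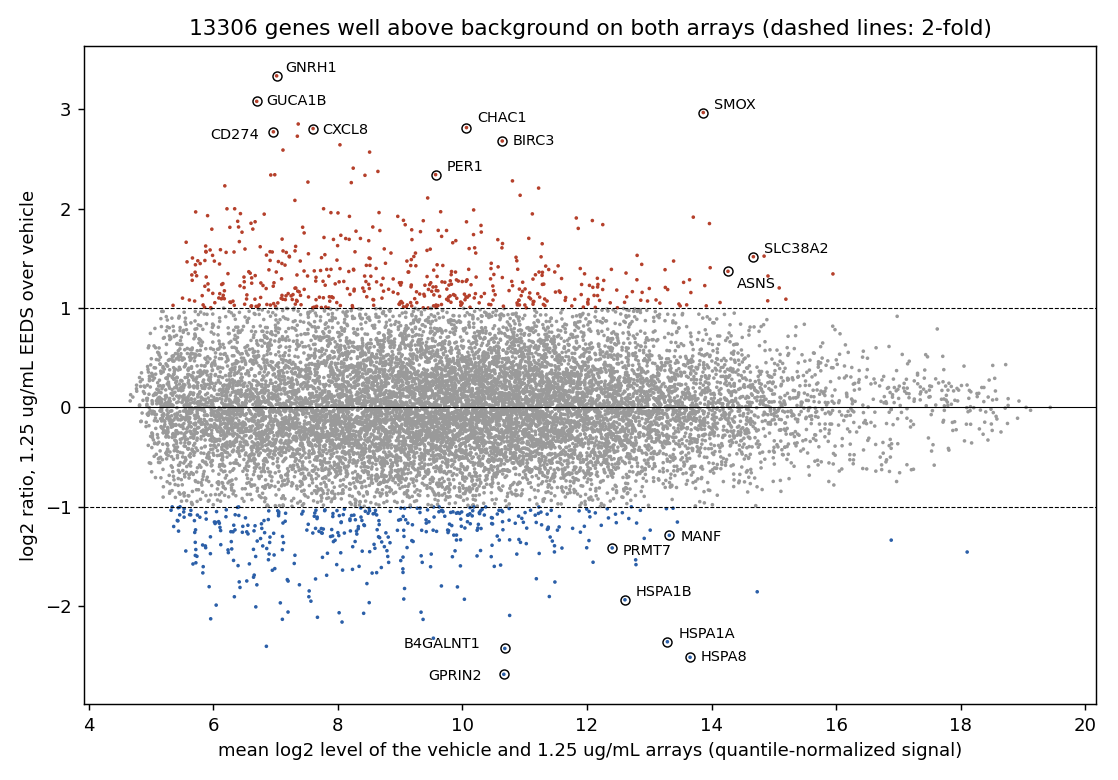
Log2 ratio of 1.25 μg/mL EEDS over the vehicle (vertical axis) against the mean log2 level of both arrays (horizontal axis) for 13306 genes, 1 point a gene. Red points are the 499 genes more than 2-fold higher and blue points the 402 more than 2-fold lower. SMOX and the heat shock genes HSPA8 and HSPA1A stand far from 0 at a high level, whereas most of the other large ratios lie at lower levels.

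The arrays without any agent give the only measure of how far 2 arrays differ when no extract is present. On the 11810 genes well above background on the vehicle and lowest-dose arrays of both agents, 1.25 μg/mL EEDS had 394 genes (3.34%) over 2-fold above its vehicle and 322 (2.73%) over 2-fold below. Between both vehicle arrays, 419 (3.55%) stood more than 2-fold higher with the helveticoside vehicle and 156 (1.32%) more than 2-fold lower. Both comparisons have the EEDS vehicle array in common, and which vehicle is put over the other is arbitrary, so these counts are not set against each other side by side. The SD of the log2 ratios was 0.53 at 1.25 μg/mL and 0.48 between the vehicles. The vehicle arrays belong to different sets of arrays, and dose, culture and array cannot be told apart in any single ratio.

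**Figure D2:**
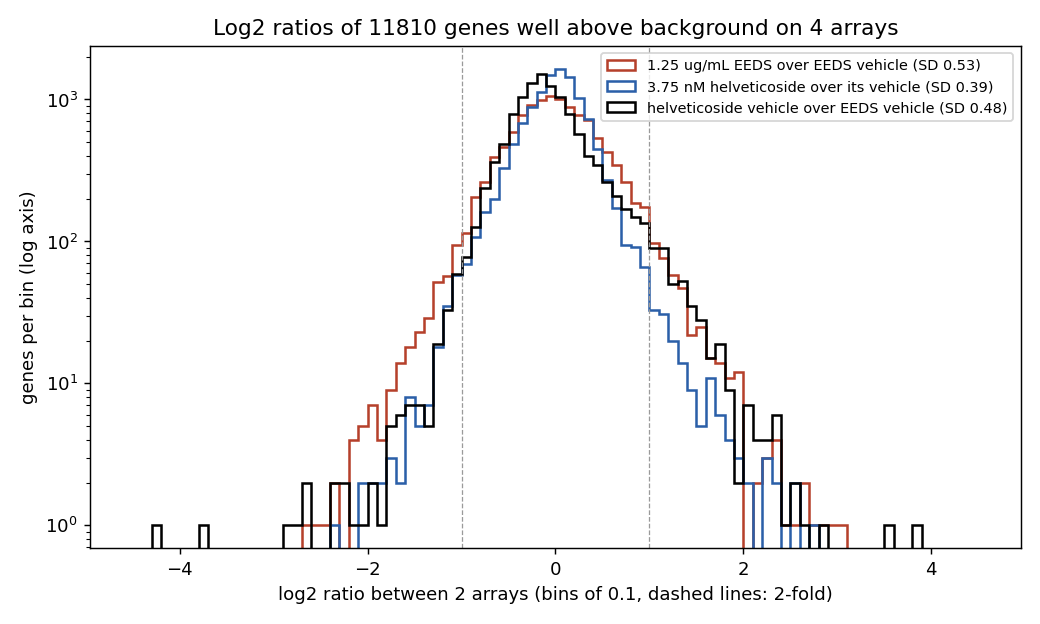
Numbers of genes (vertical log axis) by log2 ratio between 2 arrays (horizontal axis, bins of 0.1) for 11810 genes. The red line compares 1.25 μg/mL EEDS with its vehicle (SD 0.53), the blue line 3.75 nM helveticoside with its vehicle (SD 0.39) and the black line the vehicle arrays with each other (SD 0.48). The red and black lines share the EEDS vehicle array, and the sides of the black line would change places if the vehicles did.

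Within an array the error was small. Some probes are printed on up to 10 spots, and for 634 genes at least 5 spots were usable on both arrays, with a median SD between spots of 0.06 on the log2 scale. Of these genes, 26 (4.10%) rose over 2-fold and 20 (3.15%) fell over 2-fold. A further check comes from genes with several probes of different sequence. Several probes were well above background on both arrays for 3194 genes, of which 325 had 1 or more probes past 2-fold, 41 had every probe more than 2-fold higher and 17 every probe more than 2-fold lower. In 55 of the 325 the probes lay on opposite sides of 0. Values with ± below carry the scanner software's own error of the 2 signals. This error covers the array only and was 0.20 for the median gene and 0.45 at most. For a probe on several spots, the errors were combined as if the spots were independent. This makes its ± smaller and leaves out any error that the spots of an array share.

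SMOX, spermine oxidase, which breaks down the polyamine spermine and releases hydrogen peroxide, had the largest rise among the genes with many spots. Its level was 12.38 on the vehicle array and 15.35 at 1.25 μg/mL, then 16.03 at 5 and 16.24 at 20 μg/mL. The log2 ratio at the lowest dose was 2.97 ± 0.06, or 7.83-fold, and most of the rise seen at the top dose was already present. The 10 spots lay between 12.23 and 12.48 on the vehicle array and between 15.29 and 15.43 at 1.25 μg/mL. On the helveticoside arrays, normalized together with those of EEDS but with no array in common, the level of SMOX was 12.84 with the vehicle and 15.62 at 3.75 nM.

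GNRH1, which encodes the hormone that releases gonadotropins, had the largest log2 ratio, 3.34 ± 0.28, with a level of 5.35 on the vehicle array and 8.69, 8.61 and 8.61 at the rising doses. GUCA1B, an activator of retinal guanylate cyclase, followed with 3.08 by its brighter probe, but its other probe gave 1.16, and the brighter gave 1.57 against the helveticoside vehicle. SMIM5, which encodes a small membrane protein, had a log2 ratio of 2.85, and LSMEM1, another membrane protein gene, 2.73. SEC31B, a coat protein of vesicles leaving the endoplasmic reticulum, reached 2.64, REM2, a small GTPase that acts on calcium channels, 2.59, and REC8, a cohesin subunit of meiosis, 2.57. The vehicle levels of these genes were low, between 5.16 for GUCA1B and 7.23 for REC8.

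CD274, which encodes the immune checkpoint ligand PD-L1, had a level of 5.58 on the vehicle array and 8.35, 9.23 and 10.82 at the rising doses. The log2 ratio at 1.25 μg/mL was 2.77 ± 0.25 by this probe and 2.44 by a second probe, so both sequences gave a large rise. CD274 was not well above background on the helveticoside vehicle array (4.60) and reached 7.04 at 3.75 nM. Every probe was over 2-fold higher in 41 genes with several probes, among them also TMEM79 (1.87 and 1.88) and USP53 (1.83 and 1.96). MBNL2, a regulator of splicing (1.56 and 1.80), and MCTP1, a calcium-binding membrane protein (1.52 and 1.62), were others. So was SLC38A2, an amino acid transporter coupled to sodium (1.52 and 1.76). SLC38A2 stood at 13.91 on the vehicle array and rose to 15.43, 15.73 and 16.20 with the dose.

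**Figure D3:**
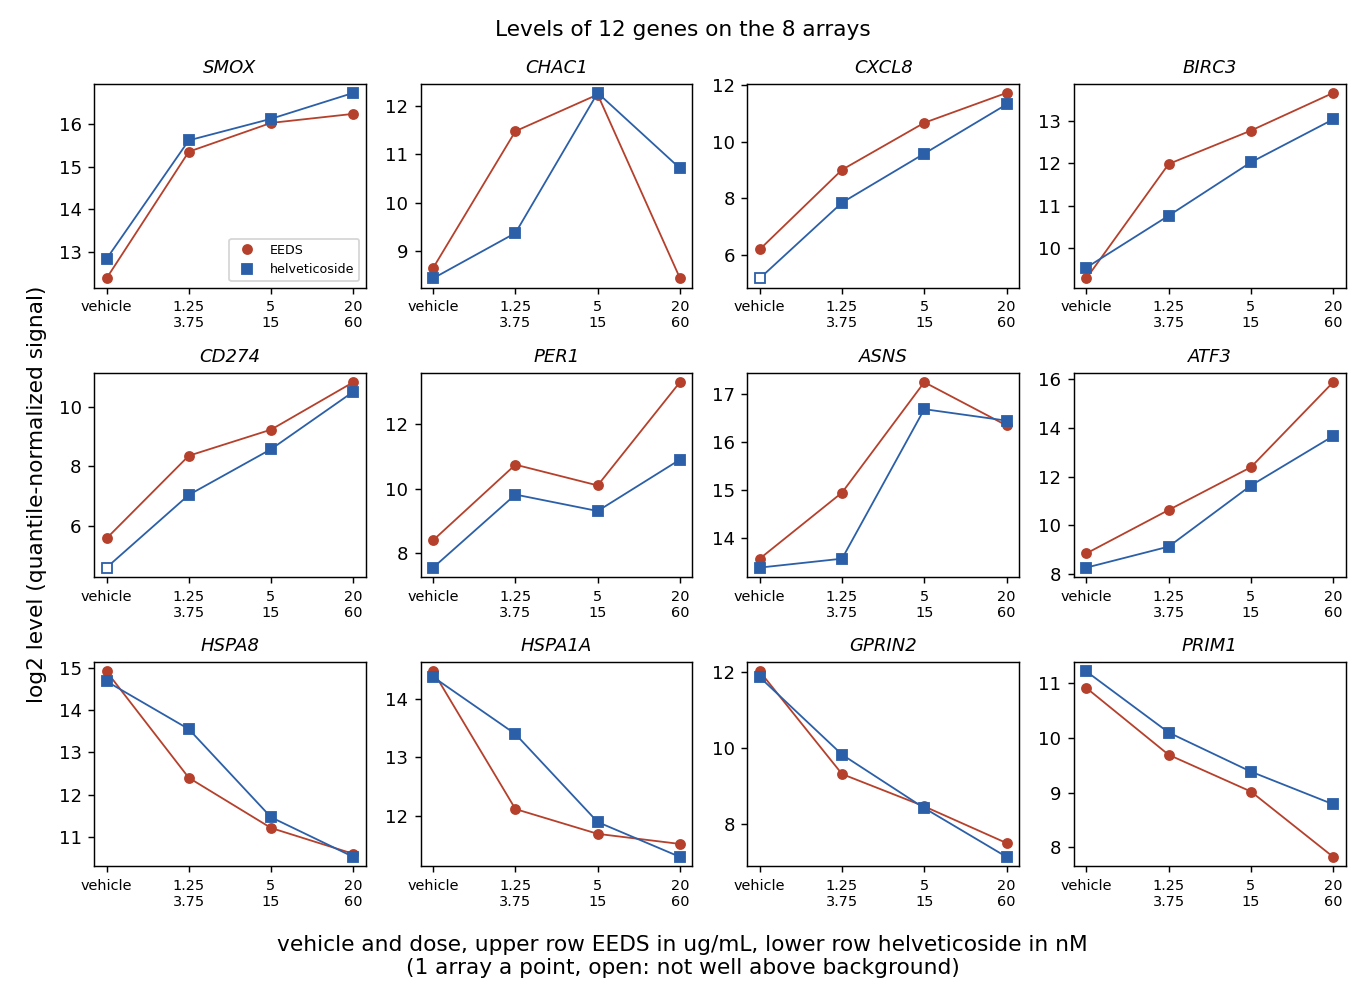
Log2 levels (vertical axes) of 12 genes on the 4 EEDS arrays (red circles) and the 4 helveticoside arrays (blue squares), from the vehicle to the highest dose (horizontal axes), 1 array a point, open symbols where the probe was not well above background. SMOX rose most at the first step, CHAC1 was highest at the middle dose of both agents, and HSPA8, HSPA1A, GPRIN2 and PRIM1 fell at every step.

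The ATF4 program had 18 members measured. Of these, 7 were more than 2-fold higher and none lower, beside 3.75% higher and 3.02% lower over all genes. The median log2 ratio was 0.88 against -0.01 over all genes. CHAC1, which degrades glutathione and is a known ATF4 target, had a level of 8.66 on the vehicle array and 11.47 at 1.25 μg/mL, a log2 ratio of 2.82 ± 0.20 or 7.05-fold, by 1 of its 2 probes. At 5 μg/mL its level was 12.23 and at 20 μg/mL 8.45, close to the vehicle's level at the top dose. A second probe of CHAC1 was not well above background on both arrays.

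The other members over 2-fold cover the arms of the program. ASNS, asparagine synthetase, rose from 13.58 to 14.95 (1.37 ± 0.20), and MTHFD2, a mitochondrial enzyme of the folate cycle, from 12.56 to 13.95 (1.39 ± 0.06 over 10 spots). PSAT1, an enzyme of serine synthesis, had a log2 ratio of 1.02. DDIT3, the transcription factor CHOP, and TRIB3, a pseudokinase that feeds back on ATF4, both had 1.32 (TRIB3 1.96 against the helveticoside vehicle), and PPP1R15A, the phosphatase subunit GADD34 that restores translation, had 1.43. ATF4 itself was at 0.63 and the cystine transporter SLC7A11 at -0.25. The list's median was 1.79 at 5 and 0.66 at 20 μg/mL, values that share the same vehicle array. At 3.75 nM helveticoside it was 0.11, and there ASNS stood at 13.58 against 13.39 on the vehicle.

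The promoter of CHAC1 is printed because this gene led the list. It was taken from the RefSeq promoter table of GRCh38.p14 (chr15:40953221-40953520, plus strand), from 250 bases before to 50 after the start site, and the capitals mark a match to the ATF4 composite motif TGATGNAA on either strand, 209 to 202 bases before the start. The motifs and the genes shown were chosen after the values were seen.
CHAC1: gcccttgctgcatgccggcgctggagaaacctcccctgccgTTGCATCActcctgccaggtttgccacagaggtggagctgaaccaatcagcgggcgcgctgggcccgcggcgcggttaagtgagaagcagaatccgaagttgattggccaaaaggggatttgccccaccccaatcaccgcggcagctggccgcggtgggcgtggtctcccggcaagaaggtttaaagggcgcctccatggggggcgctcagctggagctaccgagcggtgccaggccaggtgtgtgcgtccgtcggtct
TGATGNAA is held by 3.62% of the 35116 promoters of this length. Of the 16 list members with a promoter in the table, 4 held it, namely ASNS, CHAC1, SLC7A1 and CEBPG. The share was 2.79% over all measured genes with a promoter in the table. A match is a run of letters and not a shown binding site.

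Cytokine and chemokine genes had the highest median of the lists, 1.37. Only 12 of 25 members were well above background on both arrays, and of these 8 were more than 2-fold higher and none lower. The shares over all genes were 3.75% higher and 3.02% lower. CXCL8, interleukin-8, which attracts neutrophils, had a level of 6.20 on the vehicle array and 9.01, 10.66 and 11.72 at the rising doses, a log2 ratio of 2.81 ± 0.23 or 7.00-fold at the lowest. CCL2, which attracts monocytes, rose from 9.83 to 11.44 (1.61 ± 0.06), with its 10 spots between 9.69 and 10.00 on the vehicle array and between 11.32 and 11.56 at 1.25 μg/mL. The level of CCL2 was lower again at 5 μg/mL, 10.77.

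Among the chemokines that attract neutrophils, CXCL5 had a log2 ratio of 1.53, CXCL3 1.56, CXCL1 1.55 and CXCL2 1.21. Second probes gave 0.66 for CXCL1 and 0.50 for CXCL2, under 2-fold. CXCL1, CXCL2 and CXCL3 are close in sequence, and a shared signal between their probes was not tested. LIF, a cytokine of the interleukin-6 family, had 1.65 and CCL26, which attracts eosinophils, 1.04. IL18 (-0.29) and CSF1 (-0.24) were the members measured below 0. With the helveticoside vehicle as the control, the list's median was 1.16 and CXCL3 was under 2-fold, at 0.95.

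BIRC3, an NF-kappa B target that encodes an inhibitor of cell death, was the only 1 of 12 members of the NF-kappa B list over 2-fold. Its level was 9.30 on the vehicle array and 11.98, 12.76 and 13.65 at the rising doses, a log2 ratio of 2.68 ± 0.20 at the lowest. The inhibitors of the pathway NFKBIB (0.80), TNFAIP3 (0.74) and NFKBIA (0.63) and the subunits RELB (0.96) and REL (0.73) lay between 0 and 2-fold. The list's median was 0.54, and none of its members fell over 2-fold, beside 3.75% higher and 3.02% lower over all genes.

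The promoters of BIRC3 (chr11:102317234-102317533, plus strand), CXCL1 (chr4:73869143-73869442, plus strand) and CXCL5 (chr4:73998628-73998927, minus strand) are shown as members of these lists over 2-fold that hold the kappa B motif, GGG and TTCC with any 3 bases between them, on either strand. Capitals mark the matches. In CXCL1 and CXCL5 a match on each strand overlaps the other by all but 1 base.
BIRC3: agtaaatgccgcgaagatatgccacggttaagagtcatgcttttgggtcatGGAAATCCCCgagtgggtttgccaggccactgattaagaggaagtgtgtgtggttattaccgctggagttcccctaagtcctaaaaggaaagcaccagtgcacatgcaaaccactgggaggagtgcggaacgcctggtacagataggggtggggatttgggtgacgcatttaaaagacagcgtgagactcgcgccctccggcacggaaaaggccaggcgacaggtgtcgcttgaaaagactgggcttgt
CXCL1: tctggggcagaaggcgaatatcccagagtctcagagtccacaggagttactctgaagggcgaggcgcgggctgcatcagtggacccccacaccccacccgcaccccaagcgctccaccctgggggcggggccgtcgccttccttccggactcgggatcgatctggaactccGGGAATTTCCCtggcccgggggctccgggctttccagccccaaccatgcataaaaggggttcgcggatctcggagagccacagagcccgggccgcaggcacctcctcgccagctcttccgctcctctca
CXCL5: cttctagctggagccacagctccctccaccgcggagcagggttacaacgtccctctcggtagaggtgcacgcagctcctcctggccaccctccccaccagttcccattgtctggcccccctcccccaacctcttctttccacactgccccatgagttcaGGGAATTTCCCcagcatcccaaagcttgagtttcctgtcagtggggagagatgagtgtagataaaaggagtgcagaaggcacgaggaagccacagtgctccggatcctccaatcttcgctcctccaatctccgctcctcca
The motif is held by 6.52% of all promoters of this length and, counting a gene with any such promoter, by 10.0% of the measured genes with a promoter in the table. Among members with a promoter in the table it was found in 5 of 8 of the cytokine list and 8 of 10 of the NF-kappa B list. CXCL8 is not among them, which says only that these letters are not in its window. A match in the others is likewise no shown binding site.

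Early response factors bind DNA as the first genes switched on after a stimulus. Of 21 measured, 6 were more than 2-fold higher and 1 lower, beside 3.75% and 3.02% over all genes, and the median was 0.70. FOSB stood at 5.36 on the vehicle array and 7.17 at 1.25 μg/mL (1.81 ± 0.33), but its log2 ratio was 0.91 against the helveticoside vehicle. MAFF, a small partner of the AP-1 and NRF2 factors, rose from 7.66 to 9.34 (1.68 ± 0.07 over 10 spots). FOS had a log2 ratio of 1.28 (2.16 against the helveticoside vehicle), JUN 1.23 and KLF4 1.04. ATF3 had 1.78 by its brightest probe, but its 3 probes above background ran from -0.26 to 1.78. EGR1 was just under 2-fold, at 0.97. KLF2, a zinc finger factor best known from vessel walls, fell from 10.38 to 9.32 (-1.05 ± 0.06 over 10 spots) and was at 10.16 and 11.67 at 5 and 20 μg/mL, where the list's median reached 1.21 and 2.96. Against the helveticoside vehicle KLF2 was at -0.43, under 2-fold.

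Of the circadian clock, 4 of 13 genes measured were more than 2-fold higher and none lower, beside 3.75% and 3.02% over all genes. The list's median was 0.73. PER1, a repressor of the clock that also responds to cyclic AMP and glucocorticoids, had a level of 8.40 on the vehicle array and 10.74, 10.10 and 13.30 at the rising doses, so the lowest dose lay above the middle one. Its log2 ratio was 2.34 ± 0.20, and 3.19 against the helveticoside vehicle. PER2 had 1.30 and 1.32 by 2 probes, with a level of 12.24 at 1.25 μg/mL and 11.25 at 5, and CRY1, a partner of the PER proteins, had 1.30. The activators CLOCK (0.09) and BMAL1 (0.39) were under 2-fold. TEF had 1.53 from a low level of 5.23.

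The list of CCN genes and YAP targets had a median of 0.64, and that of BMP, TGF-beta and ID genes 0.40. Named after their values were seen, the kinase gene PLK3 had a log2 ratio of 1.51, TNFRSF10B, which encodes a death receptor for TRAIL, 1.28, BBC3, which encodes the killer protein PUMA, 1.24, and CDKN1A, the cell cycle inhibitor p21, 1.23. ANKRD1 (1.87), AJUBA (1.21) and CCN2 (1.19) were the 3 of 14 members of the YAP list over 2-fold. Of 21 BMP, TGF-beta and ID genes 5 were over 2-fold, among them SKIL at 1.37, GDF15, a stress cytokine, at 1.20, ID4 at 1.04 and ID2 at 1.02 (0.81 against the helveticoside vehicle). PLAU, urokinase, rose by 1.26 and 1.28 in 2 probes. Of 26 apoptosis regulators 6 were over 2-fold higher, among them MCL1 (1.42) and PMAIP1 (1.24, or 0.82 against the helveticoside vehicle), which act against and for cell death. CASP6 was the 1 of 26 over 2-fold lower (-1.25), a share near that of all genes. The counts of this paragraph stand beside 3.75% higher and 3.02% lower over all genes.

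**Figure D4:**
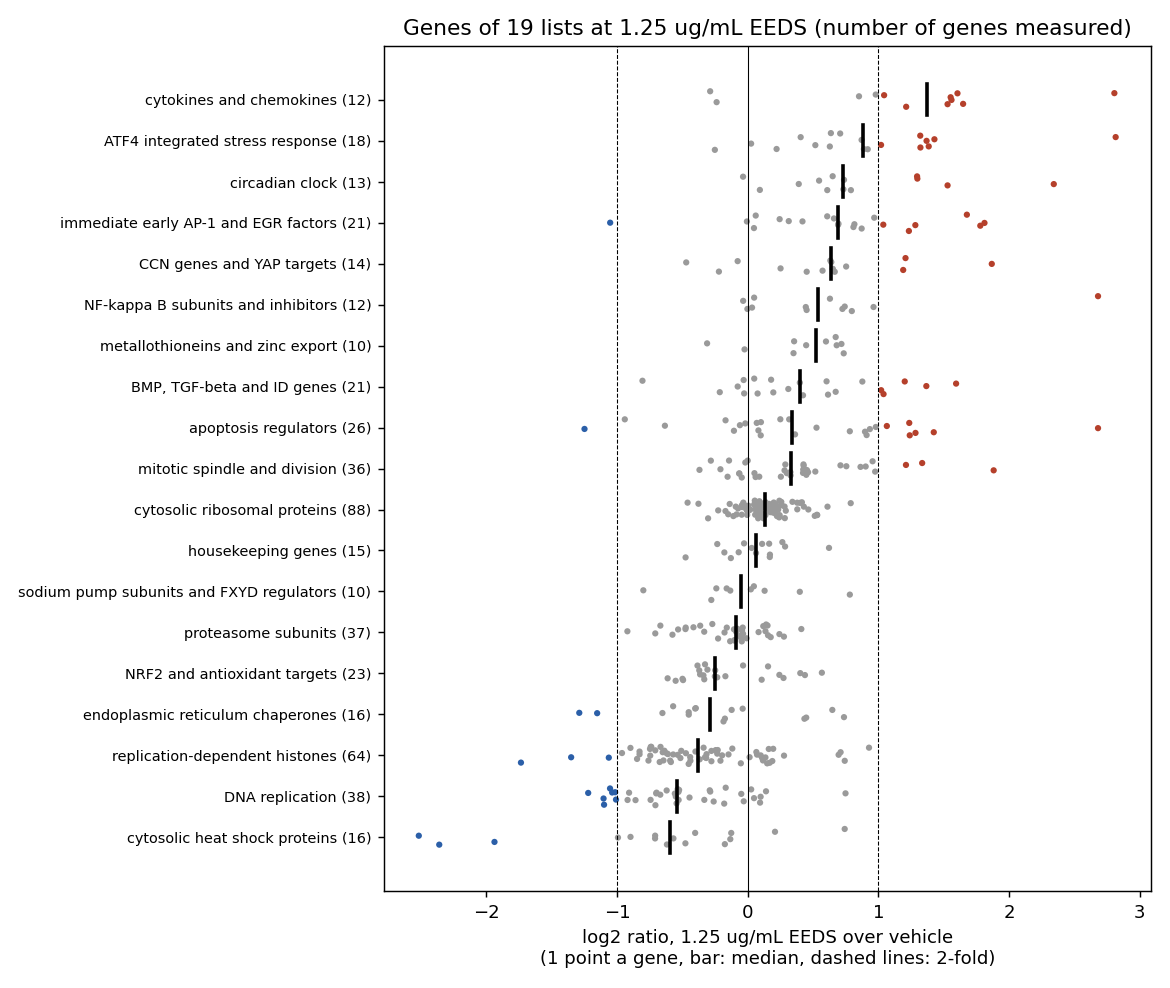
Log2 ratios of 1.25 μg/mL EEDS over the vehicle (horizontal axis) for the genes of 19 lists (vertical axis, number of genes measured in brackets), 1 point a gene, with the median as a bar. Red and blue points are more than 2-fold higher and lower. The medians run from 1.37 for cytokines and chemokines to -0.59 for the list of cytosolic heat shock proteins, with ribosomal, housekeeping and sodium pump genes near 0. The heat shock list also holds HSPD1 and HSF2.

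The list of cytosolic heat shock proteins, mostly chaperones that fold and refold proteins, had the lowest median of the lists, -0.59. It also holds the mitochondrial chaperone HSPD1 and the transcription factor HSF2, which is no chaperone. Of its 16 members measured, 3 were more than 2-fold lower and none higher, beside 3.02% lower and 3.75% higher over all genes. HSPA8, the chaperone Hsc70 that cells make without stress, had a level of 14.91 on the vehicle array and 12.40, 11.21 and 10.60 at the rising doses. Its log2 ratio at the lowest dose was -2.52 ± 0.20, or 5.72-fold lower, and it rests on 1 probe. HSPA1A, the inducible chaperone Hsp70, fell from 14.47 to 12.11 (-2.36 ± 0.06), with its 10 spots between 14.39 and 14.57 on the vehicle array and between 11.96 and 12.17 at 1.25 μg/mL. HSPA1B fell from 13.58 to 11.64 (-1.94 ± 0.20), but HSPA1A and HSPA1B are near-identical copies and their probes may share signal.

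The rest of the list moved less. HSP90AB1, a form of Hsp90 that cells make throughout, was just under 2-fold at -0.99, the co-chaperones DNAJA1, DNAJB1 and BAG3 were at -0.90, -0.71 and -0.71, and HSPH1 was at -0.62. HSF1, the factor that switches on these genes, stood at -0.40 and HSF2 at 0.74. At 3.75 nM helveticoside the levels were 13.55 for HSPA8 against 14.68 with the vehicle, and 13.40 for HSPA1A against 14.38, lower than their vehicle in both. With the helveticoside vehicle as the control of the 1.25 μg/mL array, HSPA8 was at -2.28, HSPA1A at -2.26 and the list's median at -0.45.

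The promoters of HSPA8 (chr11:123062087-123062386, minus strand) and HSPA1A (chr6:31815293-31815592, plus strand) are printed as the largest falls of this list. Capitals mark the pair of heat shock units GAANNTTC, which reads the same on both strands.
HSPA8: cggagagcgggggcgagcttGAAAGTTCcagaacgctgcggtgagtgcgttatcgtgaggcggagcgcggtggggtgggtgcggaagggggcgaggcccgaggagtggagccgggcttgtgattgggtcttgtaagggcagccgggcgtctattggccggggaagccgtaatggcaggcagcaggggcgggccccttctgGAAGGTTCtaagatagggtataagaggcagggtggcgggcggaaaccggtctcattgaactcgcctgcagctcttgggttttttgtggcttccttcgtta
HSPA1A: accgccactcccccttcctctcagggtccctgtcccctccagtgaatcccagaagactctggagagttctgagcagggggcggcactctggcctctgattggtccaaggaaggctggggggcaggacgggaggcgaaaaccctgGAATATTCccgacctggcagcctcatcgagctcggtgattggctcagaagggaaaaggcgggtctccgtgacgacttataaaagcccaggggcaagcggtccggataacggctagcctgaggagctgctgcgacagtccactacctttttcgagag
HSPA8 has 2 such matches, at 230 to 223 and 50 to 43 bases before the start, and HSPA1A 1, at 106 to 99 before it. The motif is held by 6.77% of all promoters of this length and by 6.59% of the measured genes with a promoter in the table. Of the 15 list members with such a promoter, 10 held it, among them members that stayed under 2-fold. A match is again a run of letters and not a shown binding site, and a link to the falls was not tested.

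Chaperones of the endoplasmic reticulum had a median of -0.29, with 2 of 16 more than 2-fold lower and none higher. The shares over all genes were 3.02% lower and 3.75% higher, and at the latter a list of 16 can hold none. HSPA5, the chaperone BiP, fell from 11.22 to 10.07 (-1.15 ± 0.20), and MANF, a secreted protein made under stress of this compartment, fell from 13.97 to 12.68 (-1.29 ± 0.20). HSP90B1 (0.65) and DNAJC3 (0.74) lay on the other side of 0.

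DNA replication genes were lower in 32 of 38 members, with a median of -0.54, and 7 were more than 2-fold lower and none higher. The shares past 2-fold over all genes were 3.02% lower and 3.75% higher. PRIM1, the primase that starts new strands, fell from 10.91 to 9.69 (-1.22 ± 0.06 over 10 spots), and POLA2, a subunit of the polymerase it works with, was at -1.01. The GINS complex, part of the replicative helicase, had GINS2 at -1.10 ± 0.06, GINS4 at -1.10 and GINS3 at -1.04. The loaders RFC2 (-1.05) and CDC6 (-1.01) were also over 2-fold, while the helicase subunits MCM5 (-0.92), MCM4 (-0.91) and MCM2 (-0.86) were under it. PCNA was at -0.18. Against the helveticoside vehicle the median was -0.26, so part of its size depended on which vehicle array was used. So did the calls of POLA2 (-0.16), GINS3 (-0.70), RFC2 (-0.67) and CDC6 (-0.50), which were under 2-fold against it.

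Replication-dependent histone genes had a median of -0.38, with 3 of 64 more than 2-fold lower, beside 3.02% of all genes. H2AC16 was at -1.73 (-3.10 against the helveticoside vehicle), H1-5 at -1.35 (-2.58) and H2AC13 at -1.06, and shared signal between histone copies was not tested. Their list medians were -0.02 at 5 and 0.64 at 20 μg/mL, so the lowest dose was the one where they stood lowest. Genes of mitosis went the other way, with a median of 0.33 and 3 of 36 more than 2-fold higher, beside 3.75% of all genes. CENPE, a kinesin of the kinetochore, rose from 8.11 to 10.00 (1.88 ± 0.07 over 10 spots), NUF2, also of the kinetochore, had 1.34 and ASPM, a spindle pole protein, 1.21. Against the helveticoside vehicle these ratios were 1.15, 0.90 and 0.29. CCNB1 (-0.06), PLK1 (-0.28) and AURKA (-0.14) were near or under 0.

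**Figure D5:**
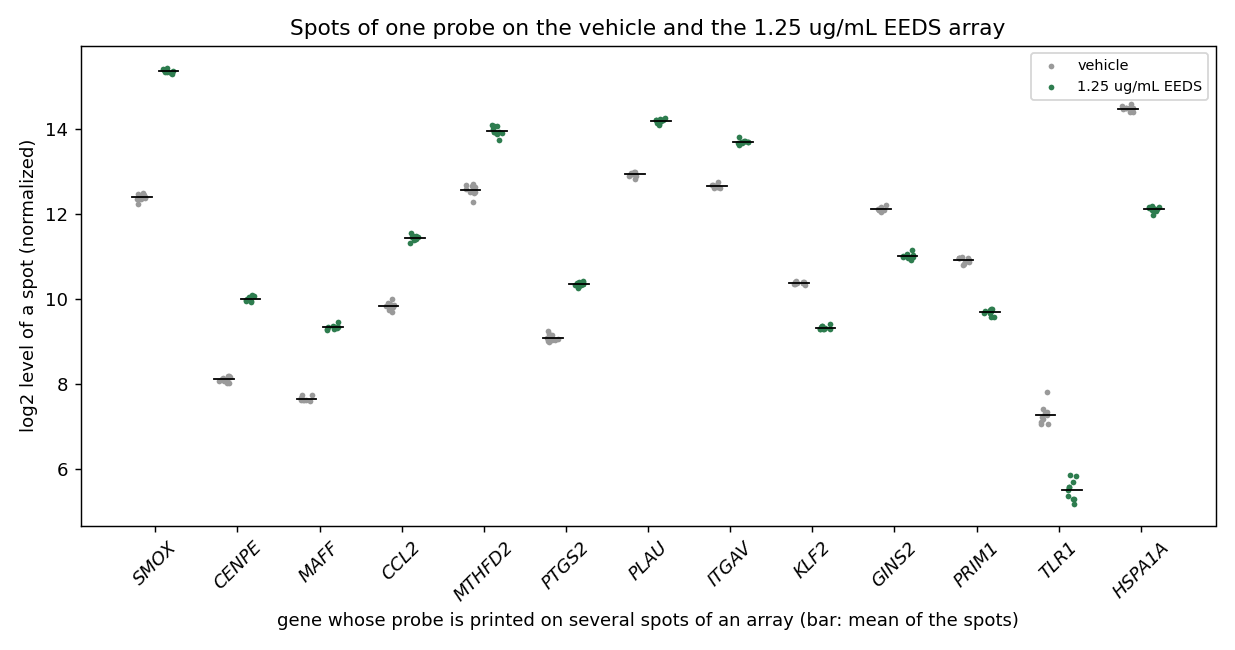
Log2 levels (vertical axis) of the single spots of 13 probes that are printed several times on an array (horizontal axis), in grey on the vehicle array and in green at 1.25 μg/mL EEDS, with the mean of the spots as a bar. The probes were picked among those over 2-fold, up in SMOX to ITGAV and down in KLF2 to HSPA1A, and the clouds of TLR1 are the widest.

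The largest falls outside the lists were led by GPRIN2, named for its part in the outgrowth of neurites. Its level was 12.01 on the vehicle array and 9.32, 8.47 and 7.51 at the rising doses, a log2 ratio of -2.69 ± 0.20 at the lowest or 6.44-fold lower. B4GALNT1, the enzyme that makes the gangliosides GM2 and GD2, fell from 11.90 to 9.47 (-2.43), and the antisense RNA PSMG3-AS1 was at -2.41. DACT2 (-2.16), a modulator of Wnt signalling, SALL2 (-2.13) and ZNF70 (-2.13), both zinc finger proteins, the kinase SBK1 (-2.13) and the scaffold protein MPP2 (-2.11) followed. RNF213, a large ubiquitin ligase, was at -2.32 by its brighter probe and -0.65 by the other, and MSTO1, a mitochondrial protein, at -2.09 and -0.99. Against the helveticoside vehicle PSMG3-AS1 was at -1.71, RNF213 at -1.65, ZNF70 at -1.54 and SBK1 at -1.51.

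Every probe was over 2-fold lower in 17 genes with several probes, among them TTC12 (-1.65 and -1.63) and LRRC45 (-1.56 by the brighter). AXIN2, a target and brake of Wnt signalling (-1.36 and -1.35), and FANCF, of the Fanconi DNA repair complex (-1.34 and -1.33), were others. So were the arginine methyltransferase PRMT7 (-1.42 and -1.32) and NDRG2 (-1.51 and -1.26). PRMT7 stood at 13.11 on the vehicle array and fell at each dose, to 11.70, 11.04 and 10.20.

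Of the target of cardiac glycosides, no gene passed 2-fold. Over all genes 3.75% were higher and 3.02% lower, and at these shares lists as short as those of this paragraph can hold none. The 10 sodium pump subunits and FXYD regulators measured had a median of -0.05, and the highest was ATP1B1, a beta subunit, at 0.78. NRF2 targets, which guard against oxidants and are high in A549 cells, had a median of -0.25 with none of 23 past 2-fold, and of 0.12 against the helveticoside vehicle, so the direction turned with the vehicle used. No metallothionein or zinc export gene of 10 passed 2-fold (median 0.52).

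Several lists of basic metabolism and of the protein machinery had no gene past 2-fold. None of 17 genes of glycolysis, 13 of the pentose phosphate pathway, 23 of the citrate cycle, 88 cytosolic ribosomal proteins, 76 mitochondrial ribosomal proteins, 36 subunits of complex I and 37 of the proteasome was past it in either direction. Over all genes 3.75% were higher and 3.02% lower, and at these shares the shorter lists can hold none. The medians of these lists of metabolism and the protein machinery lay between -0.25 and 0.14. In fatty acid oxidation CPT1B, the muscle form of the carnitine transferase, was the 1 of 20 genes over 2-fold (2.08). In cholesterol synthesis 2 of 28 genes were over 2-fold lower, among them MVK, mevalonate kinase (-1.22), with the median at -0.13. Of 20 hypoxia targets VEGFA rose (1.13 and 1.52 by 2 probes) and EGLN3 fell (-1.99, or -1.03 against the helveticoside vehicle), and of 20 interferon response genes OAS2 (1.79, but -0.39 by another probe) and IFITM1, just past the limit, were higher and IFIT1 (-1.07, or -0.76 against the helveticoside vehicle) lower.

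Several further lists held a few genes past 2-fold, beside 3.75% higher and 3.02% lower over all genes. Of 13 phosphatases and Sprouty proteins that damp the MAP kinases, DUSP10 (1.09) and DUSP5 (1.08) were over it, and the median was 0.34. Of 21 G1 cyclins and inhibitors, MXD1, a rival of MYC for its partner, joined CDKN1A with 1.38 and 1.12 by its probes, while MYC was at -0.21 and CCND1 at 0.03. TXNIP, which binds thioredoxin and limits glucose uptake, stood at 5.10 on the vehicle array and 6.67 at 1.25 μg/mL (1.56 ± 0.30), and ARRDC4, of the same family, had 1.03, 2 of 7 genes of that list.

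Among 19 transporters of sodium, chloride, calcium and coupled solutes, SLC4A7, a sodium bicarbonate cotransporter (1.11), was over 2-fold beside SLC38A2, and the epithelial sodium channel subunit SCNN1A was at -0.92. Of 19 genes of cell junctions, the claudins CLDN1 (1.16) and CLDN3 (-1.13, or -0.80 against the helveticoside vehicle) lay on opposite sides of 0 and the list's median was -0.01. None of 13 keratin and mesenchymal genes and none of 8 genes of the aryl hydrocarbon receptor list passed 2-fold. Beside 3.75% higher and 3.02% lower over all genes, lists this short can hold none. CFB, complement factor B, was 1 of 13 liver-type secreted proteins over it (-1.49), with a level of 7.72 on the vehicle array, and it was not well above background on the helveticoside vehicle array (5.34). The 47 olfactory receptor genes measured had a median of -0.11 with 1 over 2-fold.

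Markers of the line were present, some of them at high levels. All 14 markers of A549 cells and airway epithelium were well above background on both arrays and within 2-fold, such as AKR1B10 at 18.32 and 18.59 and KRT18 at 18.60 and 18.27. CDH1 stood lower, at 9.91 and 9.52. Of 13 markers of blood, vessel and fibroblast cells, 4 were above background, namely CD14, COL1A1, PTPRC and CDH5, with log2 ratios from -0.20 to 0.20. The 15 housekeeping genes lay between -0.47 and 0.62.

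A gene that was dim on 1 of the arrays has no ratio, only a lower bound. For this, the level on the bright array was compared with the dim array's value or with the faintest probe called well above background there, whichever was larger. C11orf96, with a level of 8.74 at the lowest dose, was at least 13.6-fold higher than with the vehicle, and its level went on to 9.66 and 11.04 at the higher doses. KLB, a co-receptor of hormones of the fibroblast growth factor family, was at least 5.4-fold higher and STC2, a secreted glycoprotein of the ATF4 program, at least 5.3-fold higher, and both were above background at 5 and 20 μg/mL as well. DUSP7, a phosphatase of ERK kinases, and TPPP2 were at least 6.0-fold and 5.5-fold higher, but they were dim on all 7 other arrays. Of the largest bounds on the lower side, LINC00261 (at least 5.1-fold) and PRR15L (at least 4.7-fold) were also dim at 5 and 20 μg/mL and bright on the helveticoside vehicle array. PRSS54 (at least 6.7-fold), ADAM3A (at least 6.4-fold) and SYT8 (at least 4.6-fold) were bright on the EEDS vehicle array and dim on all 7 others.

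The lowest dose of helveticoside, compared with its own vehicle, shares no array with this comparison. Across 11810 genes, which are no replicates of each other, Pearson's r between these log2 ratios was 0.49 and Spearman's rho 0.49, given as a description. At 3.75 nM, 146 genes (1.24%) lay over 2-fold above the vehicle and 143 (1.21%) over 2-fold below. Of the 394 genes higher at 1.25 μg/mL EEDS, 48 were also higher at 3.75 nM, a share of 12.2% of the former and 32.9% of those of helveticoside. Of the 322 lower, 43 were also lower, a share of 13.4% and 30.1%. No gene was over 2-fold higher with EEDS and over 2-fold lower with helveticoside, and 3 were the reverse, MYO3A, ASPHD2 and C7orf25. Against the helveticoside vehicle the EEDS ratios of ASPHD2 and C7orf25 were -0.06 and -0.39, under 2-fold, and that of MYO3A -1.85. The doses of the extract and the pure compound are not matched, so no order of strength follows.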

How the data were processed

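For each array the authors deposited the intensity of every spot as read by Agilent's scanner software, with a processed signal from which it had subtracted the background. Here outlier spots were left out, spots of the same probe were averaged in the processed signal, quantile normalization, the method the study names, was run over all probes of the 8 arrays and log2 taken. The study instead first kept spots 1.4-fold over the local background and averaged ratios, not signals, of duplicate spots. The authors also deposited processed intensity values, used as an alternative. Of 34105 probes with a usable spot on every array, 24812 were matched by accession to 19056 genes of GRCh38.p14, with the brightest probe on average used for each gene. Groups follow agent and dose in the labels. With 1 array a side no test was made, and more than 2-fold was the limit, as in the study. The normalization and counting were tested on simulated data. The genes described and the 41 gene lists were chosen with earlier results of these data known. Named are the 12 largest changes each way, 6 genes each way by the smallest change over 2 or more probes, list members over 2-fold, up to 4 other bright members of a list, and the 5 largest bounds each way. Further list members are named to show the rest of a list, a choice made after their values were seen. Some genes, and a list named after one of them, are not reported here. Alternatives were other normalizations, background treatments, filters, probe rules and controls. Python 3.11.15, numpy 2.4.6, pandas 2.3.3, scipy 1.17.1, R 4.3.3 and limma 3.58.1 were used.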

Additional observations from a re-analysis of the deposited data

How the results depend on the processing

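The numbers of genes over 2-fold, 499 higher and 402 lower, were 274 and 186 with no background subtracted and 284 and 190 with normexp at an offset of 50. They were 799 and 703 among genes with a signal of 1.4 times the background, a wider filter that lets dim probes in, and 389 and 257 when all 8 arrays had to be well above background, which left 11488 genes. At 1.5-fold they were 1678 and 1575 and at 4-fold 26 and 17. With the helveticoside vehicle as the control they were 849 and 895, and 288 and 198 of the original genes were among them. The SD of the log2 ratios went from 0.55 to 0.45 with no background subtracted and to 0.70 with the helveticoside vehicle. The cause was not tested. Of 110 named genes over 2-fold, 81 to 110 stayed over 2-fold in the same direction under the 11 alternatives that change the values or the filter, and none of the 1167 values obtained for them changed sign. These genes were picked because they passed 2-fold. All alternatives except the change of control reuse the same vehicle and dose arrays. For those, a change of sign was unlikely from the start, and the count says little about a repeat of the experiment. The number of lists with a median at least 0.5 from 0 was 10 and lay between 8 and 13. No paired analysis was possible because each group has 1 array. Without replicates, the spread between cultures of one condition was not measured.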

Other observations

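The array at 1.25 μg/mL was more than 2-fold above every other of the 8 arrays in 71 genes, of which 13 were well above background on the vehicle array too. The same count was between 49 and 85 on the other arrays except at 20 μg/mL EEDS, where it was 313. Among the 13, named here after their values were seen, were ACHE, acetylcholinesterase, with a level of 9.35 at 1.25 μg/mL and 6.97 to 7.78 on the other arrays, and SDS, serine dehydratase, with 10.53 against 6.51 to 9.19. The olfactory receptor gene OR1N2 stood at 7.30 against 4.26 to 5.79. Of the other arrays, only those of the EEDS vehicle and 15 nM helveticoside had it well above background. The drug-metabolizing enzymes CYP3A5 and CYP3A7, which are close in sequence, stood at 8.31 and 8.19 against at most 7.10 and 7.15. A second probe of CYP3A5 had a log2 ratio of 0.09 over the vehicle, against 1.37 by the brighter. No gene was more than 2-fold under every other array at 1.25 μg/mL.

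Probes that could not be matched to a gene were not part of the comparison. Of 9293 such probes, 4173 were well above background on both arrays, and of these 129 (3.09%) rose over 2-fold and 98 (2.35%) fell over 2-fold at 1.25 μg/mL.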
